A study of Mus musculus with 20 samples.

Results

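The genes described here were activators, other factors and kinases of the circadian clock, 10 genes in all. The activators were *Arntl*, *Clock* and *Npas2*. With them were taken the cryptochromes *Cry1* and *Cry2*, the nuclear receptors *Rora* and *Rorb*, the repressor *Nfil3*, and the casein kinases *Csnk1d* and *Csnk1e*. All 10 were chosen by gene name from the 17211 genes of the deposited table, and each was found in 1 row. RNA was sequenced from the brains of *Winnie* mice and of C57BL/6 mice, all aged 14 weeks and bred in the same colony, with 10 brains per genotype and 5 of each 10 labelled female. *Winnie* mice carry a missense mutation in the mucin gene *Muc2*, which affects goblet cells of the gut, and develop colitis with no other treatment. C57BL/6 mice served as the uninflamed control, and no group received an agent. Mice were kept on a 12-h day/night cycle, and the hour of the day at which each brain was taken is not given in the sources used here.

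In the clock of mammalian cells, the protein made from *Arntl* (BMAL1) pairs with CLOCK or its relative NPAS2 and switches on genes that carry an E-box in their promoters. Among these genes are the period and cryptochrome repressors, which feed back on the activator pair, and the output factor *Dbp*. Receptors of the ROR family raise *Arntl* transcription and REV-ERB receptors lower it, NFIL3 opposes DBP at D-box sequences, and casein kinases 1 delta and epsilon phosphorylate the period proteins and set how long they last.

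Values are CPM, the reads of a gene scaled so that all listed genes of a brain sum to 1000000. The libraries held 16540303 to 23923769 reads, 1 read was worth 0.0418 to 0.0605 CPM, and the members ranged from 108 reads (*Nfil3*) to 4001 reads (*Rora*) in a brain. Fold changes are *Winnie* minus C57BL/6 on the log2(CPM + 0.5) scale from limma with their standard error (SE). FDR is the Benjamini-Hochberg adjusted p over all genes. Permutation tests are two-sided with 100000 resamples, or 10000 for ratios with 1 brain left out. Neuronal markers summed to 4398 to 5163 CPM per brain, and the 5 cerebellum markers to 30.8 to 88.4 CPM. Of these 5, *Gabra6* of granule cells (mean 1.46 CPM in C57BL/6 and 0.453 CPM in *Winnie* brains) and *Pcp2* of Purkinje cells (1.05 and 0.448 CPM) lay near 0, *Cbln3* was at 3.05 and 1.40 CPM, *Car8* at 12.7 and 9.92 CPM and *Cbln1*, which other regions also express, at 33.0 and 33.2 CPM. Which parts of the brain were taken is not given in the sources used here. The study's methods give other numbers of brains than were deposited, and all deposited brains were used. *Xist* and *Ddx3y*, which separate female from male tissue, went against the labelled sex in 9 of 10 C57BL/6 brains and in 0 of 10 *Winnie* brains. Library numbers ran in separate blocks for the genotypes, so library order and genotype cannot be told apart. The study calls the C57BL/6 mice littermates, and which brains shared a litter is not given in the sources used here. Nothing in the sources says that brains of a genotype came from different litters, and the tests measure the spread between these brains. In RNA from bulk tissue, fewer cells of a type and less RNA per cell cannot be told apart.

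The sequences to which these factors are known to bind were looked for in the promoter windows of RefSeq (GRCm38.p6, 300 bases, 250 before the start site), which held 9 of the 10 members (all but *Csnk1d*). The letters were searched on both strands. They are shown for the cryptochromes and for *Arntl* and *Nfil3* because the results below turn on these genes, with positions counted from the start site, the base before it being -1. In the cryptochromes, the capitals mark the E-box CACGTG and its relative CACGTT (read on the other strand as AACGTG), from chr10:85185079-85185144 (minus strand, bases -90 to -25) and chr2:92434218-92434247 (minus strand, bases -178 to -149).
Cry1: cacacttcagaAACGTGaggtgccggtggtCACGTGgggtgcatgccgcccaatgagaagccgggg
Cry2: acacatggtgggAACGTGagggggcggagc
In *Arntl* and *Nfil3*, the capitals mark TAGGTCA, the core letters of the element bound by ROR and REV-ERB receptors (TGACCTA on the other strand), from chr7:113207530-113207558 (plus strand, bases 20 to 48, inside the first transcribed bases) and chr13:52981040-52981068 (minus strand, bases -29 to -1).
Arntl: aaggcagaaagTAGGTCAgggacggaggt
Nfil3: agcgcggcgctcggaacTGACCTActaac

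The letters CACGTG stood in the windows of 1 member (*Cry1*), CACGTT in 3 (*Cry1*, *Cry2* and *Rorb*) and TAGGTCA in 2 (*Arntl* and *Nfil3*). Of all 32851 windows, 7.15% held CACGTG, 4.69% CACGTT and 2.61% TAGGTCA. The members are counted as genes and these shares as windows, and a gene can have several windows (*Csnk1e* had 4). The D-box letters TTATGTAA and TTACGTAA, found in 0.938% and 0.119% of windows, stood in no member window. A match describes these letters in these windows and shows no binding.

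Per kilobase of exon, the kinase gene *Csnk1d* had the highest level of the 10 and *Arntl* the lowest. In C57BL/6 brains the mean level was 25.7 CPM per kb for *Csnk1d*, 19.2 for *Cry2*, 16.3 for *Csnk1e*, 10.9 for *Rora*, 9.72 for *Npas2*, 8.33 for *Clock*, 5.18 for *Rorb*, 4.76 for *Cry1*, 4.56 for *Nfil3* and 4.15 for *Arntl*. The first 3 steps in this order, and that from *Clock* to *Rorb*, were seen in all 20 brains. *Rora* stood above *Npas2* in 17 brains and *Npas2* above *Clock* in 16. *Rorb* and *Cry1* (11 of 20 brains) and *Nfil3* and *Arntl* (9 of 20) did not separate beyond the spread between brains.

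*Arntl*, the partner that CLOCK and NPAS2 share, fell in *Winnie* mouse brains. Its lowest, median and highest values were 27.0, 31.0 and 39.0 CPM in C57BL/6 brains and 23.9, 27.0 and 28.7 CPM in *Winnie* brains. All 10 *Winnie* brains lay below the C57BL/6 median, 4 of them below the lowest C57BL/6 brain, and 8 C57BL/6 brains lay above the highest *Winnie* brain. The means were 31.2 ± 3.40 CPM and 26.4 ± 1.63 CPM (SD, n = 10 each), a log2 fold change of -0.23 (SE 0.0535, 95% confidence interval -0.34 to -0.12, FDR = 0.0184 in limma). The permutation test gave p = 0.00022. Over all 17211 genes, 2.52% passed an FDR of 0.05 and 1.01% passed it as lower in *Winnie* brains. *Arntl* passed in each of the 20 fits that left out 1 brain (FDR 0.0092 to 0.0411) and in 10 of 11 other settings of scaling, filter, covariate, block and tool (FDR 0.0042 to 0.0512). With the summed level of 5 thalamus markers as a covariate, chosen after seeing the data, the fold change was -0.19 and the FDR 0.0829. With that of 6 striatum markers, also chosen after seeing the data, the fold change was -0.23 and the FDR 0.0268. With only the brains whose *Xist* and *Ddx3y* went with the sex label, which left 1 C57BL/6 brain, assumed to vary like the others, it was -0.11 with an FDR of 0.927. That fit called 1 of all 17211 genes, so it could not test the members. *Arntl* (ENSMUSG00000055116) lies at chr7:113207465-113314126 on the plus strand (GRCm38), where the antisense gene *Gm45355* overlaps it, and reads of the pair cannot be told apart where counting ignores strand.

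*Clock*, the histone acetyltransferase partner of BMAL1, differed between genotypes by less than the spread between brains. Its values were 110, 111 and 125 CPM (lowest, median, highest) in C57BL/6 brains and 108, 112 and 129 CPM in *Winnie* brains, and the groups overlapped over nearly their whole range. The log2 fold change was 0.00 with a 95% confidence interval of -0.08 to 0.07 (FDR = 0.975). *Npas2*, whose protein can pair with BMAL1 in place of CLOCK, spanned 37.9, 44.4 and 58.0 CPM in C57BL/6 and 36.5, 45.4 and 49.4 CPM in *Winnie* brains. The 3 highest values of *Npas2* were in C57BL/6 brains and the 2 lowest in *Winnie* brains, and the medians were nearly equal. Its log2 fold change was -0.08 (SE 0.0730, FDR = 0.609).

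**Figure D1:**
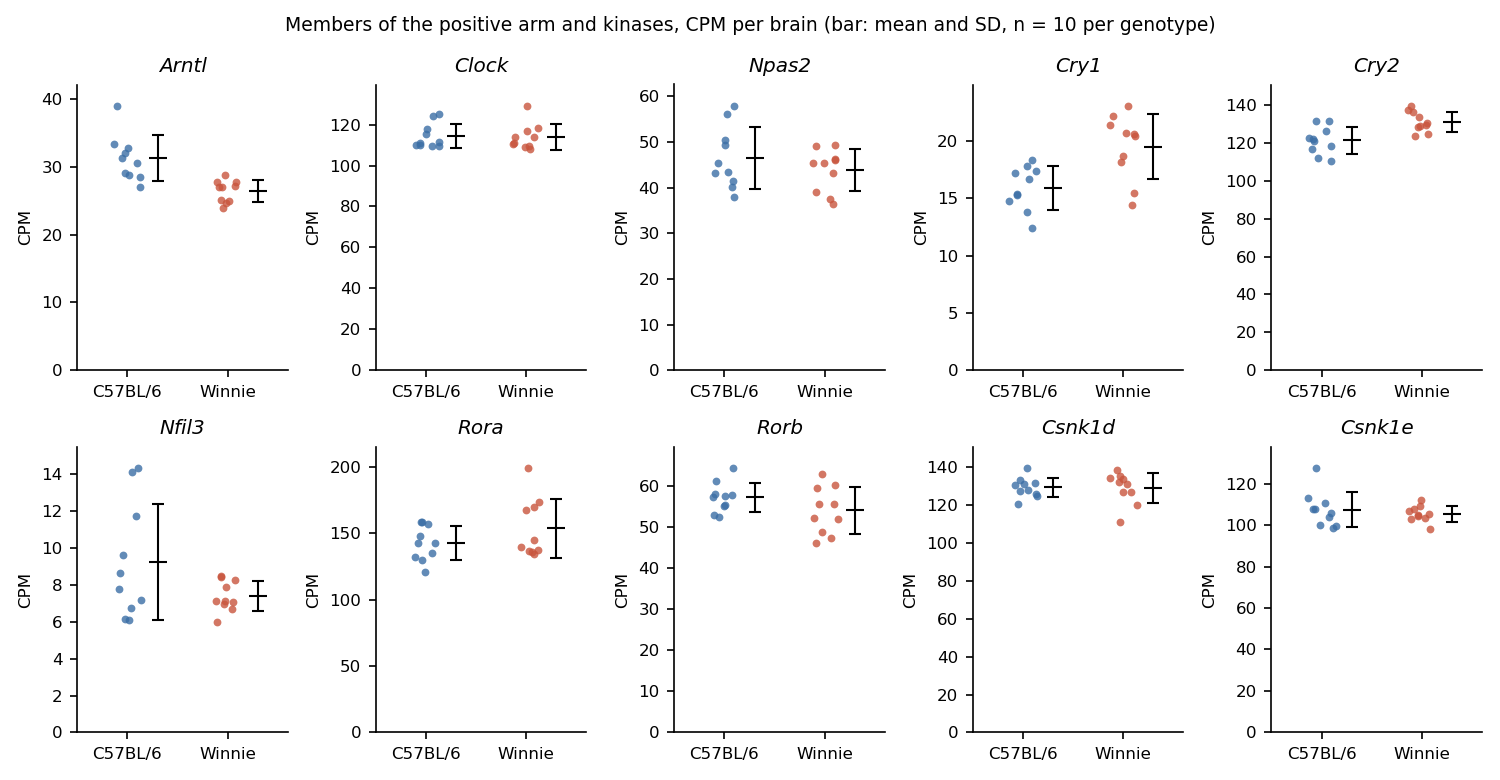
CPM of the 10 members in each brain (vertical axes from 0), with C57BL/6 in blue and *Winnie* in red, 10 points per genotype, and a bar for the mean and SD. *Arntl* lies lower in *Winnie* brains (26.4 against 31.2 CPM), *Cry1* and *Cry2* lie higher, *Nfil3* spreads most among C57BL/6 brains (6.09 to 14.3 CPM), and *Clock*, *Csnk1d* and *Csnk1e* overlap.

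The cryptochromes, the repressors that bind the activator pair directly, had higher values in *Winnie* brains, short of the threshold. *Cry1* values were 12.4, 16.03 and 18.3 CPM in C57BL/6 brains and 14.4, 20.5 and 23.1 CPM in *Winnie* brains. Of the 10 *Winnie* brains, 7 lay above the highest C57BL/6 brain and 2 below the C57BL/6 median, so the groups overlapped at the low end. The means were 15.9 ± 1.90 and 19.5 ± 2.83 CPM (SD, n = 10 each), a log2 fold change of 0.28 (SE 0.0786, 95% confidence interval 0.12 to 0.44) with an FDR of 0.0504, and the permutation p was 0.00536. *Cry1* passed when C57BL/6 replicate 10 (FDR = 0.0389), *Winnie* replicate 9 (0.0166) or *Winnie* replicate 10 (0.0308) was left out, and ranged up to an FDR of 0.0989 over the other brains left out. *Cry2* values were 111, 122 and 132 CPM in C57BL/6 brains and 124, 130 and 140 CPM in *Winnie* brains. All 10 *Winnie* brains lay above the C57BL/6 median of *Cry2* and 4 above its highest C57BL/6 brain. The log2 fold change of *Cry2* was 0.11 (SE 0.0366, 95% confidence interval 0.04 to 0.19, FDR = 0.0849, permutation p = 0.00286), and it passed without C57BL/6 replicate 10 (FDR = 0.0448). *Cry1* lies at chr10:85131700-85185064 with no annotated gene overlapping it, and *Cry2* at chr2:92403646-92434043, where *D930015M05Rik* overlaps on the other strand (both on the minus strand of GRCm38).

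*Rora*, which raises *Arntl* transcription, spanned 121, 143 and 159 CPM in C57BL/6 brains and 135, 142 and 199 CPM in *Winnie* brains. The medians were almost the same, and 4 *Winnie* brains stood above every C57BL/6 brain. The log2 fold change was 0.10 (SE 0.0692, FDR = 0.472). *Rorb*, a relative expressed mainly in the nervous system, had values of 52.5, 57.5 and 64.5 CPM in C57BL/6 and 46.3, 54.1 and 63.1 CPM in *Winnie* brains. Here 5 *Winnie* brains lay below the lowest C57BL/6 brain, and the log2 fold change was -0.09 (SE 0.0519, FDR = 0.403).

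*Nfil3*, the D-box repressor, had the widest spread of the members among C57BL/6 brains, relative to its mean. Its values were 6.09, 8.22 and 14.3 CPM in C57BL/6 brains and 5.96, 7.13 and 8.49 CPM in *Winnie* brains. C57BL/6 replicates 1, 3 and 5 held 14.1, 14.3 and 11.7 CPM, and 5 C57BL/6 brains lay above every *Winnie* brain. The coefficient of variation was 33.9% in C57BL/6 and 11.2% in *Winnie* brains, where counting alone gave 7.90%. Within genotypes its SD on the log2 scale was larger than that of 97.0% of the 1304 genes of similar mean level. The log2 fold change was -0.25 with a wide interval, -0.53 to 0.04 (FDR = 0.366).

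The casein kinase 1 genes differed between genotypes by less than the spread between brains. *Csnk1d* values were 120, 129 and 140 CPM in C57BL/6 and 111, 132 and 138 CPM in *Winnie* brains, and *Csnk1e* values were 98.8, 107 and 128 CPM in C57BL/6 and 97.9, 105 and 112 CPM in *Winnie* brains. The groups overlapped for both genes. The log2 fold changes were 0.00 (95% confidence interval -0.08 to 0.07, FDR = 0.969) and -0.02 (-0.11 to 0.06, FDR = 0.816). Antisense genes also overlap *Csnk1d*, *Csnk1e* and *Rora*, and the strand setting of the counting is not given in the sources used here.

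Of the 10 members, 1 passed an FDR of 0.05 (*Arntl*, lower) and 0 passed the stricter threshold of the study (an FDR of 0.001 and a minimum fold change), which 0% of all genes passed. At an unadjusted p under 0.05 there were 3 members (*Arntl*, *Cry1* and *Cry2*), beside 17.6% of all genes. The median log2 fold change of the members was -0.01 against 0.00 for all genes, with 3 members positive and 7 negative. As higher in *Winnie* brains, 0 members passed in limma beside 1.52% of all genes. DESeq2 called 2 members higher (*Cry1*, adjusted p = 0.0223, and *Cry2*, adjusted p = 0.0453), beside 505 of the 14875 genes it tested. For 0 members did the 10 brains of a genotype all lie beyond the 10 of the other, which 0.0291% of all genes did.

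The other genes of the pathway were described by lists. Of the 11 genes of the repressor and output arm, 5 rose in *Winnie* brains at an FDR under 0.05, beside 1.52% of all genes. Of the 11, 0 fell, and all 11 had a positive log2 fold change with a median of 0.28. Those that rose were the period gene *Per3* (0.42, FDR = 0.00590), the repressors *Bhlhe41* (0.28, FDR = 0.0112) and *Ciart* (0.59, FDR = 0.0168), the REV-ERB gene *Nr1d2* (0.20, FDR = 0.0194) and the D-box activator *Tef* (0.14, FDR = 0.0222). *Dbp*, a main target of the activator pair, lay at 67.6 ± 17.3 CPM in C57BL/6 and 93.6 ± 14.5 CPM in *Winnie* brains (0.49, FDR = 0.0589). With the thalamus markers as a covariate 3 of the 11 genes passed. The list was chosen with values of these brains known, so its direction is not independent evidence beside that of *Arntl*.

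Of 16 other clock kinases, phosphatases and ubiquitin ligases, such as *Csnk1a1* and *Gsk3b*, 0 passed in limma and the median log2 fold change was 0.04. An unadjusted p under 0.05 was found for 3 of them (18.8%), near the 17.6% of all genes. Of all genes 2.52% passed an FDR of 0.05, and of 11 paralogs and partners of the activators 1 did. It was the acetyltransferase gene *Ep300*, a coactivator of the CLOCK and BMAL1 pair, at 99.1 ± 8.57 CPM in C57BL/6 and 112 ± 5.29 CPM in *Winnie* brains (0.18, FDR = 0.0222). *Arntl2*, a paralog that can also pair with CLOCK, was at 5.58 ± 1.09 CPM in C57BL/6 and 6.11 ± 1.41 CPM in *Winnie* brains, with an FDR of 0.680.

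**Figure D2:**
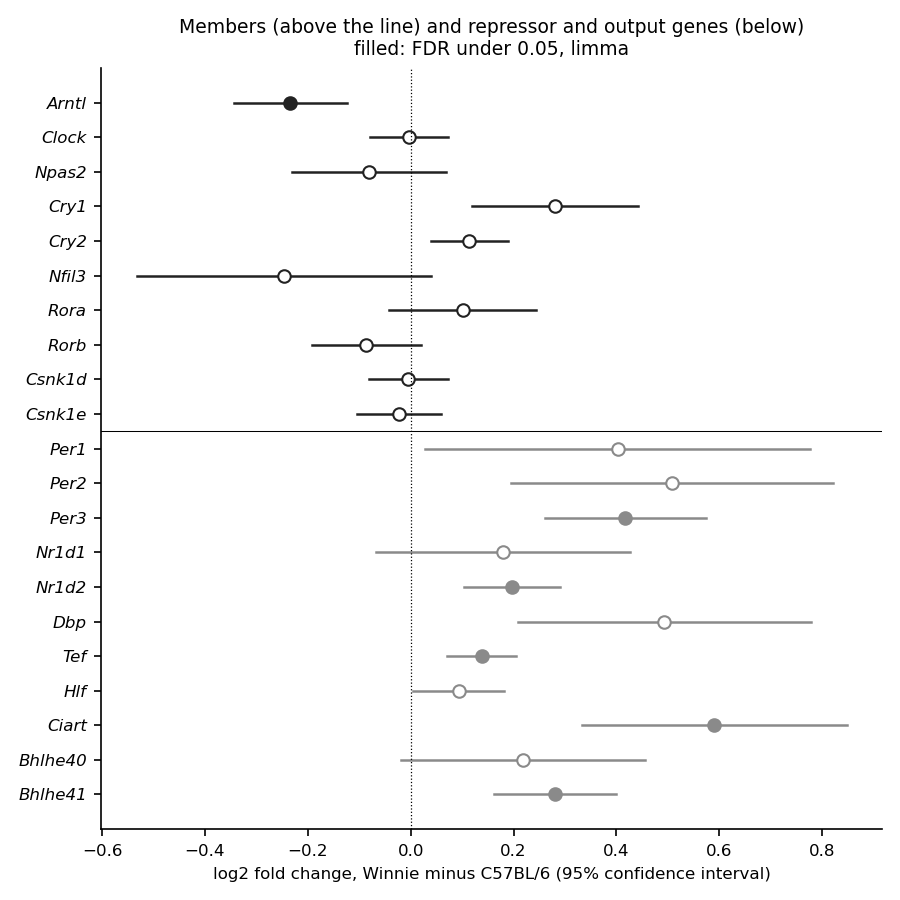
Log2 fold changes (horizontal axis, *Winnie* minus C57BL/6) with 95% confidence intervals for the 10 members above the line and the 11 repressor and output genes below it, with filled points for an FDR under 0.05. *Arntl* at -0.23 is the only filled member, and the 11 genes below the line are all positive, with 5 filled.

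Ratios of 2 genes within a brain do not depend on how brains were scaled, and 6 were tested with a permutation test and adjusted over the 6. *Rora* to *Rorb* was higher in *Winnie* brains, at a mean log2 ratio of 1.49 ± 0.144 against 1.30 ± 0.125 in C57BL/6 brains (SD, n = 10 each). In 9 of 10 *Winnie* brains it lay above the C57BL/6 median and in 7 above every C57BL/6 brain, a difference of 0.19 with an adjusted p of 0.0172. *Arntl* to *Dbp* was -1.79 ± 0.277 in *Winnie* and -1.07 ± 0.486 in C57BL/6 brains. All 10 *Winnie* brains were below the C57BL/6 median of this ratio and 7 below the lowest C57BL/6 brain, a difference of -0.73 (adjusted p = 0.0054 by permutation). *Nfil3* to *Dbp*, a repressor and an activator at D-boxes, differed by -0.74 (adjusted p = 0.0172), with all 10 *Winnie* brains below the C57BL/6 median and 3 below the lowest C57BL/6 brain. *Dbp*, which is not a member, is part of both ratios and had a log2 fold change of 0.49 itself (FDR = 0.0589). Those of *Arntl* and *Nfil3* alone were smaller, at -0.23 and -0.25, and *Nfil3* alone did not pass (FDR = 0.366). The genes in these ratios were chosen with earlier results of these data known. The ratios are therefore not independent evidence beside the single genes. Differences of 0.17 for *Cry1* to *Cry2* (adjusted p = 0.0840), -0.08 for *Npas2* to *Clock* (0.464) and 0.02 for *Csnk1d* to *Csnk1e* (0.7501) did not pass.

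**Figure D3:**
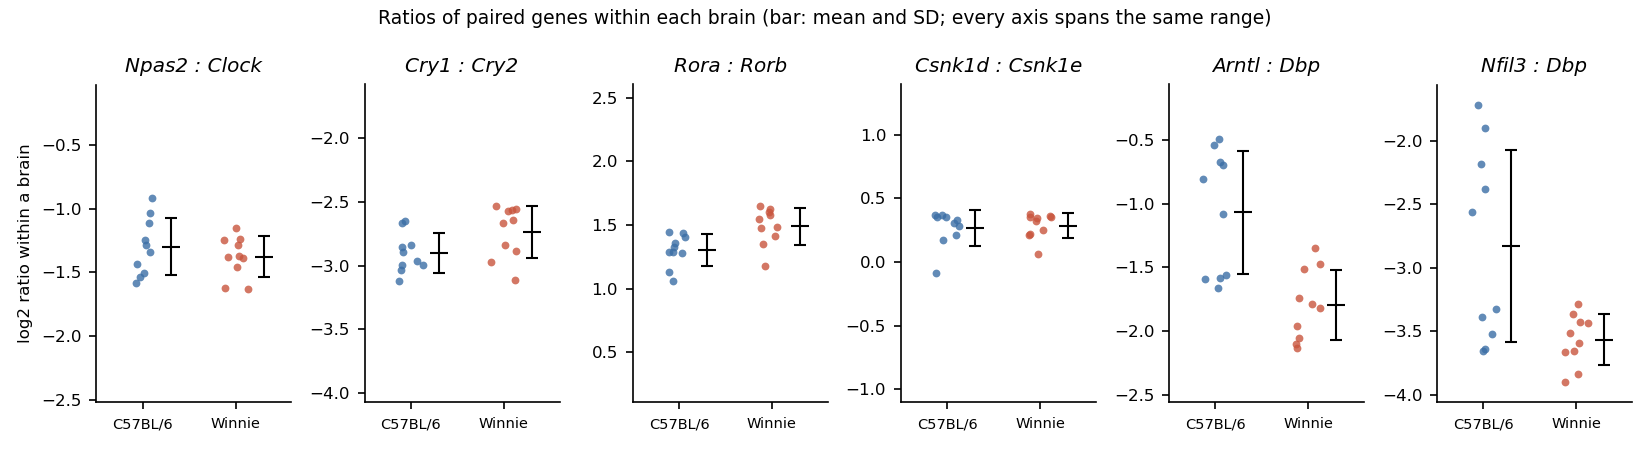
Log2 ratio of 2 genes within each brain (vertical axes, all spanning the same range), with C57BL/6 in blue, *Winnie* in red, 10 points per genotype and a bar for the mean and SD. The ratios of *Arntl* and of *Nfil3* to *Dbp* lie lower in *Winnie* brains (differences of -0.73 and -0.74), and that of *Rora* to *Rorb* lies higher (0.19).

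Brains also differed in *Arntl* within a genotype, and its log2 level was correlated with those of the other 9 members and of the 11 repressor and output genes, 20 relations adjusted together. On deviations from the genotype means over the 20 brains, *Dbp* went opposite to *Arntl*, with r = -0.64 (permutation p = 0.00165, adjusted p = 0.0191) and rho = -0.70 (p = 0.00084, adjusted p = 0.0168). Without the 2 brains whose *Arntl* deviations lay farthest from the median deviation, r was -0.65. Pooled over genotypes the values were r = -0.80 (p = 4e-05, adjusted p = 0.0004) and rho = -0.78 (p = 0.00014, adjusted p = 0.001). Within C57BL/6 brains r was -0.76 (p = 0.00645, adjusted p = 0.0323), and within *Winnie* brains it was -0.33 (p = 0.345, adjusted p = 0.939). Whether the genotypes differed in r was not tested.

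*Bhlhe41*, a repressor at E-boxes, went the same way, with r = -0.61 on deviations (p = 0.00363, adjusted p = 0.0242) and rho = -0.56 (p = 0.0116, adjusted p = 0.0581). Its r was -0.60 within C57BL/6 brains and -0.63 within *Winnie* brains, neither of which passed alone (adjusted p = 0.126 and 0.658), and -0.46 without the 2 farthest brains. *Nfil3* went with *Arntl*, at r = 0.65 on deviations (p = 0.00191, adjusted p = 0.0191) and rho = 0.56 (p = 0.0115, adjusted p = 0.0581), dropping to r = 0.40 without the 2 farthest brains. Within C57BL/6 brains its r was 0.80 (p = 0.00336, adjusted p = 0.0224) and within *Winnie* brains 0.02 (p = 0.968), and the difference between these was not tested. *Npas2* had r = 0.57 (p = 0.00792, adjusted p = 0.0264) and rho = 0.52 (p = 0.0208, adjusted p = 0.0833), and r = 0.34 without the 2 farthest brains. *Per2* (r = 0.57) and *Bhlhe40* (r = 0.58), both with an adjusted p of 0.0264 on deviations, had an r of 0.45 and 0.24 without the 2 farthest brains, and rho did not pass (adjusted p = 0.0581 and 0.111). Within C57BL/6 brains the highest r was that of *Bhlhe40*, 0.91 (p = 0.00024, adjusted p = 0.0048), and *Per1* had 0.82 (p = 0.00171, adjusted p = 0.0171), both with *Arntl* and so opposite in sign to *Dbp*. Within *Winnie* brains these were -0.28 and -0.20 (p = 0.433 and 0.575), and the differences between genotypes were not tested. Within *Winnie* brains 0 of the 20 relations passed the permutation test, and 0 had an unadjusted p under 0.05.

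**Figure D4:**
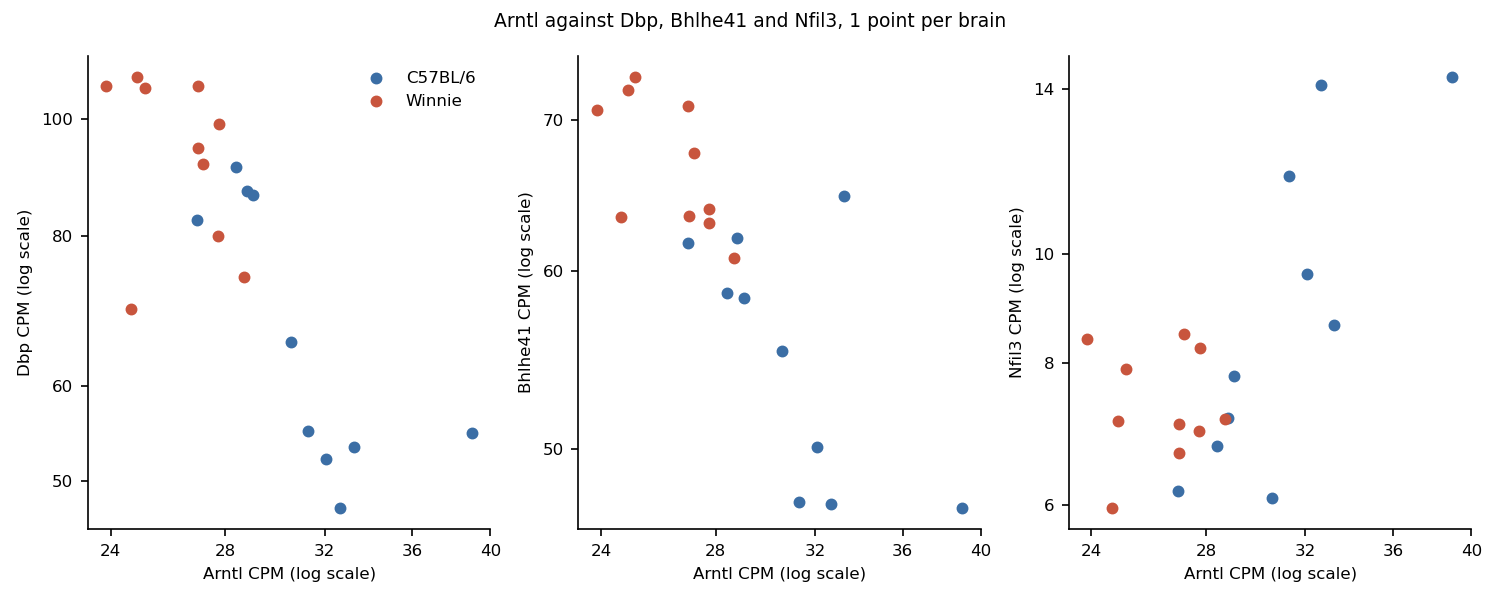
*Arntl* CPM (horizontal, log scale) against CPM of *Dbp*, *Bhlhe41* and *Nfil3* (vertical, log scales), 1 point per brain, with C57BL/6 in blue and *Winnie* in red. *Dbp* and *Bhlhe41* go down as *Arntl* goes up (r = -0.64 and -0.61 on deviations from the genotype means), and *Nfil3* goes up among the C57BL/6 brains (r = 0.80).

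The members were also read beside markers of brain regions and cell types, whose summed levels differed between brains. Relations of the 10 members with 12 lists of cell type and region markers gave 120 correlations of deviations from the genotype means, of which 1 passed. It was *Rora* with the 5 thalamus markers, at r = 0.86 (permutation p = 1e-05, the smallest the resamples can give, adjusted p = 0.0012), rho = 0.80 (adjusted p = 0.0060) and r = 0.79 without the 2 brains farthest in thalamus markers. The thalamus markers summed to 142, 194 and 214 CPM (lowest, median, highest) in C57BL/6 brains and to 171, 191 and 276 CPM in *Winnie* brains, and 0 of the 5 passed in limma, also at an unadjusted p under 0.05. *Winnie* replicates 2, 3 and 10, with the 3 highest sums (276, 255 and 245 CPM), held 199, 173 and 167 CPM of *Rora*. *Winnie* replicate 4 held 169.7 CPM of *Rora* with a sum of 189.6 CPM, below the *Winnie* median. With these markers as a covariate, the log2 fold change was 0.00 for *Rora* and -0.12 for *Rorb* (FDR = 0.988 and 0.319), and *Cry1* passed at 0.34 (FDR = 0.0393). The part of the thalamus in the ratio of *Rora* to *Rorb* was not tested. Of the other 11 lists, the widest spreads between brains were those of the hypothalamus (5.86 to 76.0 CPM), blood (40.6 to 208 CPM) and striatum markers (182 to 747 CPM), and 0 of their genes passed in limma (1, in blood, had an unadjusted p under 0.05). Of the 5 endothelial markers, the tight junction gene *Cldn5* was lower in *Winnie* brains (-0.47, FDR = 0.00331), while the other 4 were positive and did not pass, with a median of 0.09 over the 5. Their sum was 135, 153 and 195 CPM in C57BL/6 and 152, 168 and 184 CPM in *Winnie* brains (permutation p = 0.110).

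For each member, the 3 genes with the most similar deviations over the 20 brains were taken from 15167 genes with a mean of at least 1 CPM, as a description. The values of r ran from 0.72 to 0.94. *Nfil3* was closest to the orphan nuclear receptors *Nr4a2* and *Nr4a3* and the AP-1 gene *Fosl2* (r = 0.94 for each, and 0.87 to 0.88 without the 2 brains farthest in *Nfil3*), all 3 known to be induced by neuronal activity. In this order, r was 0.98, 0.97 and 0.96 within C57BL/6 brains and 0.63, 0.72 and 0.67 within *Winnie* brains. Whether the genotypes differed in these was not tested. *Nr4a2* was at 103, 102 and 87.8 CPM in C57BL/6 replicates 1, 3 and 5, the brains with the most *Nfil3*, and at 66.1 to 82.1 CPM in *Winnie* brains. The log2 fold change of *Nr4a2* was -0.01 (FDR = 0.973). *Arntl* was closest to *R3hdm1*, *Tacc1* and *Ptpn12* (r = 0.82, 0.82 and 0.80), whose log2 fold changes between genotypes were -0.01, 0.02 and 0.03 (FDR of 0.836 or more), and 0 of the 3 passed.

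**Figure D5:**
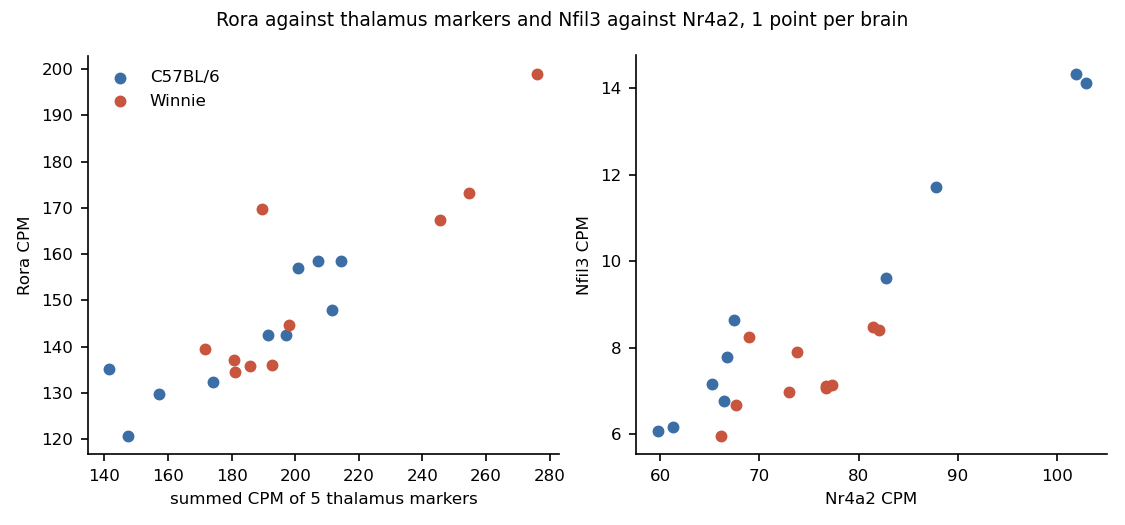
Left, *Rora* CPM against the summed CPM of 5 thalamus markers, and right, *Nfil3* CPM against *Nr4a2* CPM, 1 point per brain, with C57BL/6 in blue and *Winnie* in red. *Rora* rises with the marker sum in both genotypes (r = 0.86 on deviations), and the 3 highest *Nfil3* values are in C57BL/6 brains with 87.8 to 103 CPM of *Nr4a2*.

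*Clock* was closest to *Ranbp2*, *Ralgapa1* and *Ccser2* (r = 0.81 to 0.84), and *Npas2* to the neuronal genes *Baiap2*, *Kcnip2* and *Sipa1l1* (0.80 to 0.82). *Cry1* was closest to *Etv5* and *Spred1*, both tied to growth factor signalling, and to *Inafm2* (0.75 to 0.81), and *Cry2* to the p38 kinase gene *Mapk14*, *Pde4dip* and *Stab1* (0.77 to 0.83). *Rora* was closest to the RNA-editing enzyme gene *Adarb1*, the potassium channel gene *Kcnc2* and *Vav3* (0.84 to 0.89), and *Rorb* to *Fgfrl1*, *Txnip* and *Slc39a8* (0.75 to 0.76). *Csnk1d* was closest to *Wdr47*, *Txnrd2* and *Uap1* (0.87 to 0.88) and *Csnk1e* to *Nfix*, *Etv6* and *Wipf2* (0.72 to 0.78). For *Csnk1e* these values fell to 0.51 to 0.58 without the 2 brains farthest in *Csnk1e*. Within *Winnie* brains they were 0.62, 0.30 and 0.27. Of these 30 genes, 1 passed between genotypes, beside 2.52% of all genes. This was *Fgfrl1*, a receptor of the fibroblast growth factor family, at -0.32 (FDR = 0.0194). Among the members themselves, the highest r was 0.65 for *Arntl* and *Nfil3* and 0.62 for *Rora* and *Rorb*, and the lowest was -0.57 for *Npas2* and *Rora*. The kinases *Csnk1d* and *Csnk1e* had an r of -0.11 with each other.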

How the data were processed

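The authors made polyA libraries from brain RNA, sequenced them on an MGISEQ-2000RS and counted reads per gene of GRCm38 with featureCounts. The authors deposited CPM per gene and brain, made with Degust, and each brain's CPM sum to 1000000. The aligner, the filter on low counts and the strand setting are not given in the sources used here. All 20 deposited columns were used, and every gene had at least 0.5 CPM in 4 or more brains. The smallest step in a brain gave the value of 1 read, and 100% of the values were whole reads within 0.001 CPM. Depth therefore was 16540303 to 23923769 reads per brain, with a median of 19087088, and counting error was 7.90% for *Nfil3* and smaller for the other members.

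Genotypes were compared with limma 3.58.1 (trend and robust, R 4.3.3) on log2(CPM + 0.5) over all 17211 genes, with no covariate, since *Xist* and *Ddx3y* went against the sex labels of most C57BL/6 brains. Single genes, ratios and correlations were tested by permutation (Python 3.11.15, numpy 2.4.6, scipy 1.17.1, pandas 2.3.3). On the reads, edgeR 4.0.16 and DESeq2 1.42.0 were alternatives. The other alternatives were pseudocounts of 0.1 and 1, a mean CPM of at least 1, 3 other scalings, covariates, a replicate block and each brain left out. The scripts were tested on simulated data. All 10 members are named, with the 3 genes most like each, list genes past an FDR of 0.05 and the genes in the ratios. *Csnk1a1*, *Gsk3b*, *Arntl2*, *Per1*, *Per2*, *Bhlhe40*, the cerebellum markers and *Cldn5* were added after their values were seen. Members and gene lists were chosen with earlier results of these data known. Positions come from GENCODE M21 and promoter sequences from RefSeq GRCm38.p6.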

Additional observations from a re-analysis of the deposited data

Results flagged for a closer look

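A brain was looked at again where its value lay far from the other 9 of its genotype, with a gap to the nearest brain that is large beside the group's whole range (Dixon's test at 95%). Chance flags about 1 in 20 groups, and 3 of the 20 groups of the 10 members were so marked. *Arntl* was 39.0 CPM in C57BL/6 replicate 3, where the other C57BL/6 brains lay between 27.0 and 33.3 CPM, and without that brain *Arntl* still passed. *Clock* was 129 CPM in *Winnie* replicate 8, where the others lay between 108 and 118 CPM. *Csnk1e* was 128 CPM in C57BL/6 replicate 6, where the others lay between 98.8 and 113 CPM, and that brain also had the lowest *Csnk1d* of its genotype, 120 CPM.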

How the results depend on the processing

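The log2 fold change of *Arntl* ran from -0.25 to -0.23 over the 11 other settings (scaling, pseudocount, filter, covariates, block and tool), and it passed in 10 of them (FDR 0.0042 to 0.0512). Replicate numbers did not pair the brains (r of same-numbered deviations -0.29 to 0.15, with 1 of 10 C57BL/6 brains closest to its own number). A replicate block gave 227 genes called, an FDR of 0.0512 for *Arntl* and 0.0307 for *Cry1*. Of the members, 2 passed with labelled sex as a covariate and with a mean CPM of at least 1 (*Arntl* and *Cry1*), and 3 with DESeq2 (*Cry2* as well). DESeq2 called 968 of 14875 genes tested, 10 of them at the study threshold. In edgeR 1 gene passed that threshold. Leaving out 1 brain gave 169 (without C57BL/6 replicate 5) to 694 (without C57BL/6 replicate 10) genes called, against 434 with all brains, and the count also moved by more than 1.5 times without C57BL/6 replicates 3, 8 or 9 or *Winnie* replicates 2, 3, 7 or 8. It gave 0 to 2 genes at the study threshold, 1 to 3 members (3 without C57BL/6 replicate 10) and 5 to 6 output genes. The ratio differences then ran from -0.79 to -0.66 (*Arntl* to *Dbp*), -0.83 to -0.62 (*Nfil3* to *Dbp*), 0.16 to 0.22 (*Rora* to *Rorb*), 0.14 to 0.21 (*Cry1* to *Cry2*, which passed at 0.20, 0.21 and 0.19 without C57BL/6 replicate 7, *Winnie* replicate 9 or *Winnie* replicate 10), -0.11 to -0.03 (*Npas2* to *Clock*) and -0.0202 to 0.0439 (*Csnk1d* to *Csnk1e*, negative without C57BL/6 replicate 6). Of the covariates chosen after seeing the data, thalamus markers gave 112 genes and 3 output genes called, and striatum markers 318 genes and 5 output genes. Only the brains whose *Xist* and *Ddx3y* went with the sex label gave 1 gene, 0 members and 0 output genes. The causes were not tested, beyond the fewer brains of the last. With 108 to 343 reads per brain, *Nfil3* had the largest counting error of the members.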

Other observations

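Among the C57BL/6 brains, *Dbp* values left a gap between 65.3 and 82.4 CPM. Replicates 2, 4, 8 and 9 held 82.4, 91.1, 86.5 and 87.2 CPM of *Dbp* and 27.0, 28.4, 29.1 and 28.8 CPM of *Arntl*, the 4 lowest *Arntl* values of their genotype. Replicates 1, 3, 5, 6 and 10 held 47.5 to 55.0 CPM of *Dbp* and 31.3 to 39.0 CPM of *Arntl*. Replicate 7 lay between, at 65.3 CPM of *Dbp* and 30.6 CPM of *Arntl*. The *Winnie* brains held 69.5 to 108 CPM of *Dbp*.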
